A study of Mus musculus with 4 samples.

Results

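The interferon-induced gene families described here are 49 genes of the mouse spleen. They are the genes whose symbol starts with Ifi, Ifit, Ifitm, Gbp or Mx followed by a digit, or with Oas, together with Isg15 and Rsad2, and which had at least 20 UMIs (unique molecular identifiers, counted RNA molecules) over the 4 libraries. The symbols matched 55 of 32285 genes, and 6 of these (Oas1d, Oas1e, Oas1f, Oas1h, Ifi27l2b and Ifi44l) stayed below 20 UMIs. No Mx gene was analysed here. The members fall into the guanylate-binding proteins (GBP, 10 genes), the IFI200 or PYHIN family (11), the IFIT family (6), the IFITM family (7), the oligoadenylate synthetases (OAS, 7), 6 other Ifi genes (Ifi27, Ifi27l2a, Ifi30, Ifi35, Ifi44 and Ifi47), and the pair of Isg15 and Rsad2. All 49 were placed on the GRCm38 assembly by their gene identifier, on 10 chromosomes.

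Interferons are secreted signals of infection. Type I interferons act through the receptor chains Ifnar1 and Ifnar2 and a complex that includes Stat2 and Irf9, which binds the interferon-stimulated response element (ISRE). Interferon gamma acts through Ifngr1 and Ifngr2, and its target genes often carry the gamma-activated site (GAS). Of the families, IFIT proteins bind viral RNA, IFITM proteins hinder the entry of viruses into cells, OAS enzymes sense double-stranded RNA, GBPs are GTPases that attack intracellular microbes, and IFI200 proteins include nuclear sensors and regulators of DNA. Isg15 is a ubiquitin-like modifier, and Rsad2, also called viperin, makes a nucleotide that stops viral polymerases.

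The libraries came from spleens of female C57BL/6J mice, 1 library per mouse. The 2 mice of the D3TA group were heterozygous (1 copy) for a cyclin D3 change, threonine 283 to alanine, written into Ccnd3 by CRISPR/Cas9 and present in every tissue throughout life. The WT group was 2 wild-type mice. Each group held mice of 12 and 16 months, and the labels do not say which library had which age. At these ages the knock-in model has a severe myeloproliferative neoplasm, an overgrowth of myeloid blood cells.

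Promoters of the members carried the core of the ISRE far more often than promoters at large, and the sequences below show genes on which the results turn. The search used RefSeq windows from 250 bases before to 50 after each start (GRCm38.p6), available for 40 of the 49 members. The core searched was GAAA, any 2 bases and GAAA again, on both strands, so that it can also read TTTC, any 2 bases and TTTC. At least 1 match stood in 26 of 40 members (65%) against 3.99% of 27025 genes, and in 57.4% of member windows against 3.44% of all windows. The share was 5 of 5 in the GBP family, 8 of 10 in IFI200, 5 of 6 in IFIT, 4 of 6 in OAS, 2 of 2 for Isg15 and Rsad2, 2 of 7 in IFITM and 0 of 4 among the other Ifi genes. Members are not independent here. A window of Ifit1bl2 overlaps that of Ifit1 and holds the same 2 matches, and Ifit3 and Ifit3b have near-identical windows. The members were also picked by the names of interferon-induced families, so the excess is a description and not a test. A GAS core, TTCNNNGAA, stood in 20% of members and 9.55% of all genes, and it can overlap an ISRE match. A match is a string of letters, not a shown binding site, and a window without one says nothing about the factor. The 200 bases before the start are printed 5′ to 3′ on the gene's strand, with ISRE core matches in capitals. Isg15 and Rsad2 stand for the classical induced genes, Ifit3, Ifi213 and Ifi205 for genes called in monocytes, Ifitm6 for the gene called in neutrophils, and Ifi202b for the gene that sets 1 library apart.
Isg15: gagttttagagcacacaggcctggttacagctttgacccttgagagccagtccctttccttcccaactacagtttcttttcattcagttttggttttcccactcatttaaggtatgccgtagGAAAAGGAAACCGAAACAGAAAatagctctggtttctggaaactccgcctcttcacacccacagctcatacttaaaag
Rsad2: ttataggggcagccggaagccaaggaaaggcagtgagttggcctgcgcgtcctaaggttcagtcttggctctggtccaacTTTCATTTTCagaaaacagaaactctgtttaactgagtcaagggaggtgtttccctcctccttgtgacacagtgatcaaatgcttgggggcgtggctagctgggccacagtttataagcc
Ifit3: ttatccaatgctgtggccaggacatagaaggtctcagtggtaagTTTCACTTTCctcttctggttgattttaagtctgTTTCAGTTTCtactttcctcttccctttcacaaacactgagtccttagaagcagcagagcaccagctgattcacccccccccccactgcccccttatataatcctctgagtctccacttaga
Ifi213: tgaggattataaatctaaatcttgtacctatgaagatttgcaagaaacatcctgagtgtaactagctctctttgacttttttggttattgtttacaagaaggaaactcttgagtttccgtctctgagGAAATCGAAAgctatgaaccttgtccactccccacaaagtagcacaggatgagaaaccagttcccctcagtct
Ifi205: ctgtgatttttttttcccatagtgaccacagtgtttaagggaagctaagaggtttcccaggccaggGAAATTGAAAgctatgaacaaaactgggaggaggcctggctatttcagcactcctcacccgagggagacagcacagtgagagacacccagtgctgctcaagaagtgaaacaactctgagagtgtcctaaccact
Ifi202b: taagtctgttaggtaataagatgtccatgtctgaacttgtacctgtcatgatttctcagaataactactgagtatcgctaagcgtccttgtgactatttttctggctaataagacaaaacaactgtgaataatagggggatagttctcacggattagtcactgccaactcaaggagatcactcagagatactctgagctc
Ifitm6: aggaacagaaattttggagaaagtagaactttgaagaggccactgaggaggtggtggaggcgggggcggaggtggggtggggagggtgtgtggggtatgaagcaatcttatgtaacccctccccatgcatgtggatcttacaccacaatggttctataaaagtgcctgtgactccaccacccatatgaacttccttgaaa

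In these windows Isg15 had 3 overlapping matches, Ifit3 had 2, and Rsad2, Ifi213 and Ifi205 had 1 each, while Ifi202b and Ifitm6 had 0 in the letters shown. The windows lie at chr4:156200819-156201018 for Isg15, chr12:26456453-26456652 for Rsad2, chr19:34583329-34583528 for Ifit3, chr1:173599273-173599472 for Ifi213, chr1:174031756-174031955 for Ifi205, chr1:173982845-173983044 for Ifi202b and chr7:141016893-141017092 for Ifitm6.

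The libraries held 52330 cells after filters, and 45106 of them entered 1 of 16 classes by marker genes, none of which was a member. WT replicate 1 stands apart in depth, with 22286 cells at a median of 1393 UMIs against 7559 to 7919 in the others, which held 7679 (WT replicate 2), 11792 (D3TA replicate 1) and 10573 cells (D3TA replicate 2). Pairs of libraries shared 32 to 127 cell barcodes. Levels are given per cell class and library as CPM, the UMIs of a gene scaled to the total UMIs of that class, in the order WT replicate 1, WT replicate 2, D3TA replicate 1, D3TA replicate 2, and a change is the log2 fold change of D3TA over WT with its standard error. The composition of the spleen differed, since B cell-gated cells made up 70.3%, 69%, 18.9% and 39.5% of cells and immature neutrophil-gated cells 0.13%, 0.182%, 24.1% and 16.7%. The neutrophil RNA found outside neutrophils moved with genotype. Summed over S100a8, S100a9, Ngp, Camp, Ltf and Lcn2, it was 87.2, 55.8, 4098 and 2358 CPM in T cell-gated cells and 90.8, 53.7, 4132 and 1854 CPM in monocyte-gated cells, where 1 of the 6 genes was at 0 in each WT library. The part of this RNA in the IFITM results outside neutrophils was not tested. The p-values measure the spread between single libraries, and for 1 value an exact permutation test of 2 against 2 libraries could not go below 0.333, so tests were fitted across all genes.

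D3TA replicate 1 also stood apart from the other 3 libraries in members themselves. Ifi202b, an IFI200 gene known for strong differences between mouse strains, had 1, 0, 2189 and 2 UMIs over all kept cells, so that 99.9% of its UMIs came from that library. Its level there was 286 CPM in monocyte-gated, 104 CPM in dendritic cell-gated and 79.1 CPM in macrophage-gated cells, with 0 UMIs in these classes in each of the other libraries. Gbp2b, a guanylate-binding protein gene, had 47 UMIs in macrophage-gated cells of D3TA replicate 1 and 0 in the other 3 libraries. Over all barcodes Gbp2b had 21, 31, 113 and 64 UMIs, so it was seen in every library and was higher in both D3TA libraries. Oas1g, an oligoadenylate synthetase, had 23, 15, 403 and 51 UMIs over all kept cells. The labels give the strain C57BL/6J for every mouse, and a difference in strain background at these loci was not tested. These genes were named after their values were seen, and results below are given for each D3TA library.

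The classes in which each member was highest varied within and between families. Of 45 members tested over mature neutrophil-, monocyte-, macrophage-, dendritic cell-, B cell- and T cell-gated sums, 44 differed in level between classes (edgeR, library as a block), a share close to the 93.4% of all genes tested. The exception was Gbp5, with an adjusted p of 0.566. Over the 8 classes with at least 30 cells in every library, mature neutrophils had the highest mean for 15 members and the highest value in every library for 10 of them. T cells led for 12 members (5 in every library), monocytes for 11 (4), macrophages for 7 (2), dendritic cells for 3 (1) and B cells for 1 (0).

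**Figure D1:**
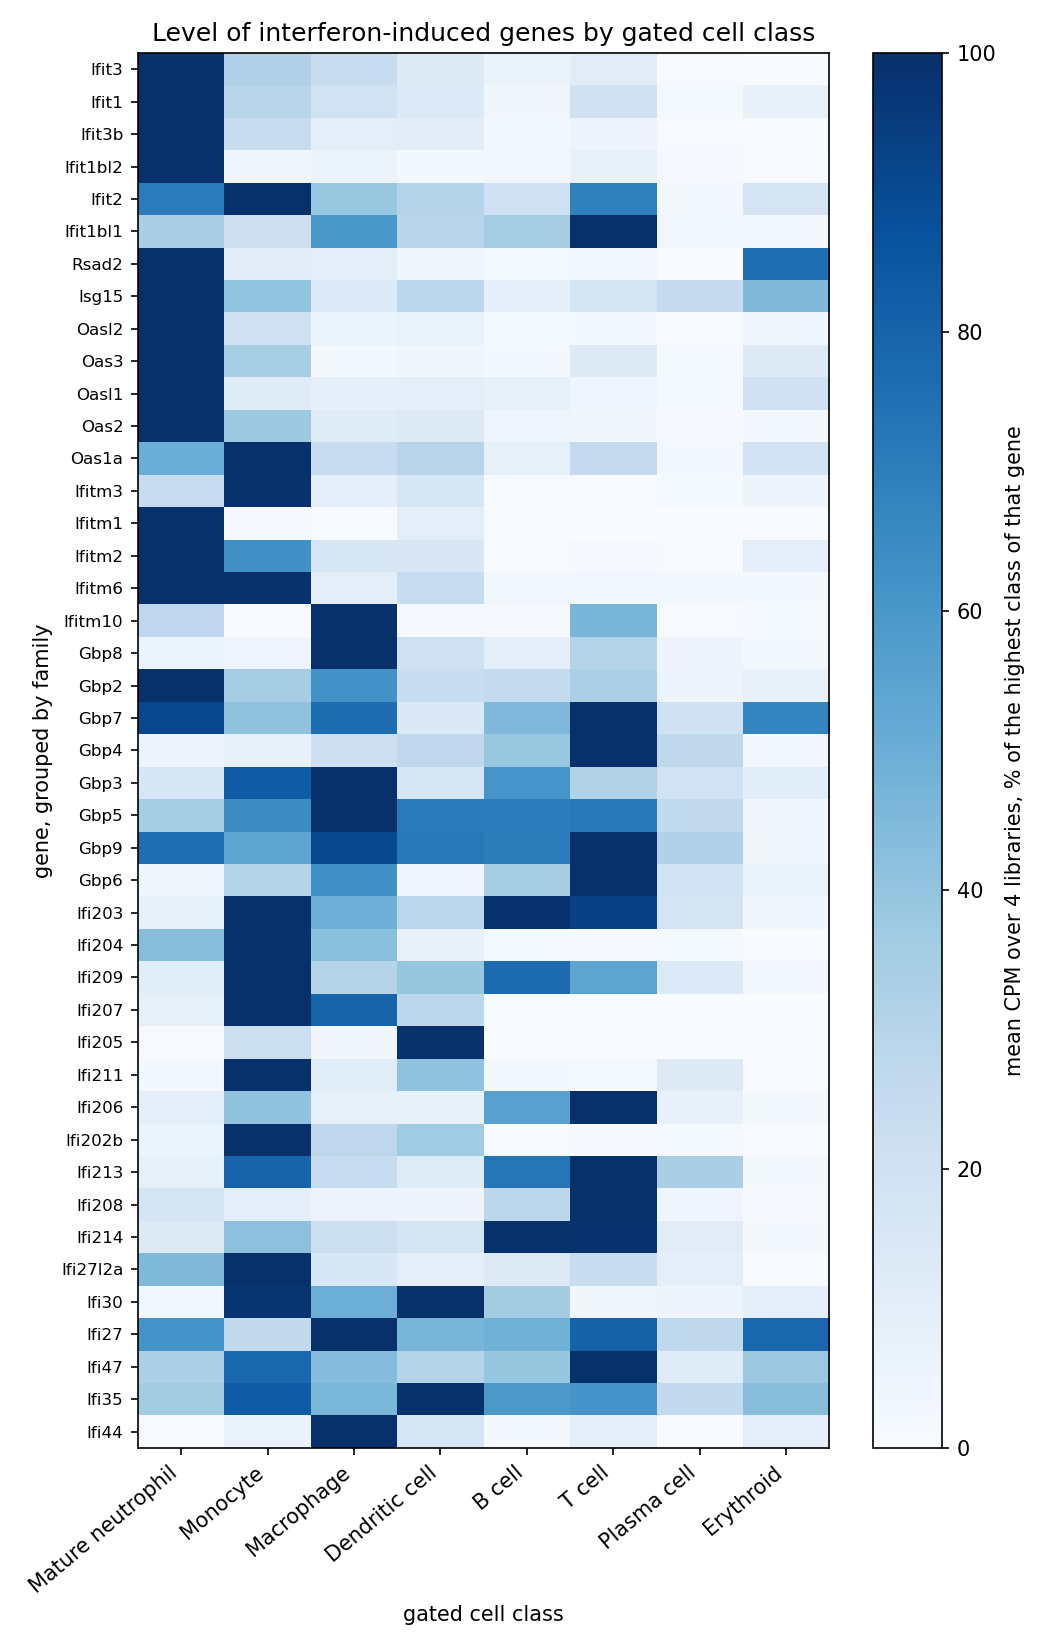
Heat map of 43 genes with a mean of at least 20 CPM in their highest class (rows, grouped by family) over 8 gated cell classes (columns); the shade is the mean CPM over 4 libraries as a percentage of the gene's highest class. Oasl2, Isg15 and Ifit1bl2 are darkest in mature neutrophils, Gbp8 and Ifi44 in macrophages, and Gbp4 and Gbp6 in T cells.

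Most genes of the IFIT and OAS families, Isg15 and Rsad2 had their highest level in mature neutrophils. Oasl2, an OAS-like protein, had 519, 435, 569 and 268 CPM in mature neutrophils, 4.99 times the mean of the next class, monocytes. Ifit1bl2 stood 13.2 times above the next class, T cells, and Ifit3b 4.17 times above monocytes. Isg15 had 335, 175, 213 and 89.4 CPM in mature neutrophils, highest there in all 4 libraries. Rsad2 had 367, 274, 160 and 77.6 CPM there, with erythroid-gated cells next at 234, 213, 174 and 42.5 CPM, so the classes overlapped and D3TA replicate 1 was higher in erythroid cells. Within the family, Ifit2 had its highest mean in monocytes (47.8 CPM), where WT replicate 2 alone gave 148 CPM, and Ifit1bl1 had its highest mean in T cells (31.8 CPM).

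The IFITM genes were split by lineage and stage. Ifitm1 had 1210, 724, 3054 and 1930 CPM in mature neutrophils, and the next class by its mean was dendritic cells, where D3TA replicate 1 gave 548 CPM and the other libraries 22.9 to 45.9 CPM. Ifitm3 was highest in monocytes at 3980, 3531, 3475 and 2093 CPM, 4.15 times mature neutrophils. Ifitm6 was higher in monocytes than in mature neutrophils in both WT libraries (510 and 506 against 166 and 118 CPM) and lower in both D3TA libraries (235 and 248 against 635 and 591 CPM). Ifitm10 was highest in macrophages, with 83.8, 96.2, 14.7 and 78.6 CPM, of which D3TA replicate 1 was the low value. Immature neutrophils, which had only 29 and 14 cells in the WT libraries, ordered Ifitm1 and Ifitm6 the other way round from mature ones. There Ifitm6 had 902, 1497, 2000 and 1773 CPM and Ifitm1 had 0, 0, 27.2 and 11.4 CPM. A count of 0 in the WT libraries allows up to 18.8 and 10.7 CPM of Ifitm1 (3 UMIs).

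The GBP, IFI200 and other Ifi genes were spread over more classes. Gbp8 was highest in macrophages at 356, 199, 250 and 259 CPM, 3.27 times T cells, and Gbp4 and Gbp6 were highest in T cells in all 4 libraries. Gbp8, Gbp9 and Gbp4 overlap on the same strand, so their shares of reads are uncertain. Gbp2 was highest in mature neutrophils at 109, 55.7, 240 and 52.6 CPM. In the IFI200 family Ifi205 was a dendritic cell gene (132, 108, 83.9 and 184 CPM, 4.6 times monocytes), Ifi204 a monocyte gene (297, 306, 124 and 151 CPM) and Ifi208 a T cell gene (82.1, 63.4, 39.8 and 48.1 CPM). Ifi203 had almost the same mean in monocytes and B cells (239 and 236 CPM), and its neighbours Ifi211 and Ifi203 overlap Mndal on the same strand. Ifi27l2a was highest in monocytes at 2070, 1312, 2568 and 1588 CPM. Ifi30, the lysosomal thiol reductase of antigen processing, had similar means in dendritic cells and monocytes (813 and 798 CPM). Ifi44 was highest in macrophages in all 4 libraries, with 37.2, 22.5, 19.3 and 31.4 CPM.

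The IFI200 genes lie in 1 cluster of 563 kb at chr1:173468485-174031810, and its members did not move as a block. In B cell-gated cells Ifi206 had 94.7, 65, 2.27 and 57.7 CPM and Ifi213 had 79.3, 62, 1.68 and 52.3 CPM. Both were near absent in D3TA replicate 1 and just below WT in D3TA replicate 2. Ifi203, at a higher level, had 332, 279, 62 and 273 CPM, and Ifi209 had 222, 194, 73.9 and 166 CPM, so D3TA replicate 1 was again the low library. Ratios to the WT mean were taken for members with at least 5 CPM in WT and not for all genes. That minimum leaves out genes seen mainly in D3TA, such as Ifi202b. The median ratio over the 6 members kept was 0.224 in D3TA replicate 1 and 0.731 in D3TA replicate 2. In T cell-gated cells the ratios were 0.452 and 0.962, with Ifi213 at 105, 68.7, 7.6 and 86.2 CPM. Ifi208 was low to a similar degree in both D3TA libraries of B cells, with 32.8, 21.4, 6.64 and 4.22 CPM and a change of -2.24 ± 0.40, but its adjusted p was 0.867.

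**Figure D2:**
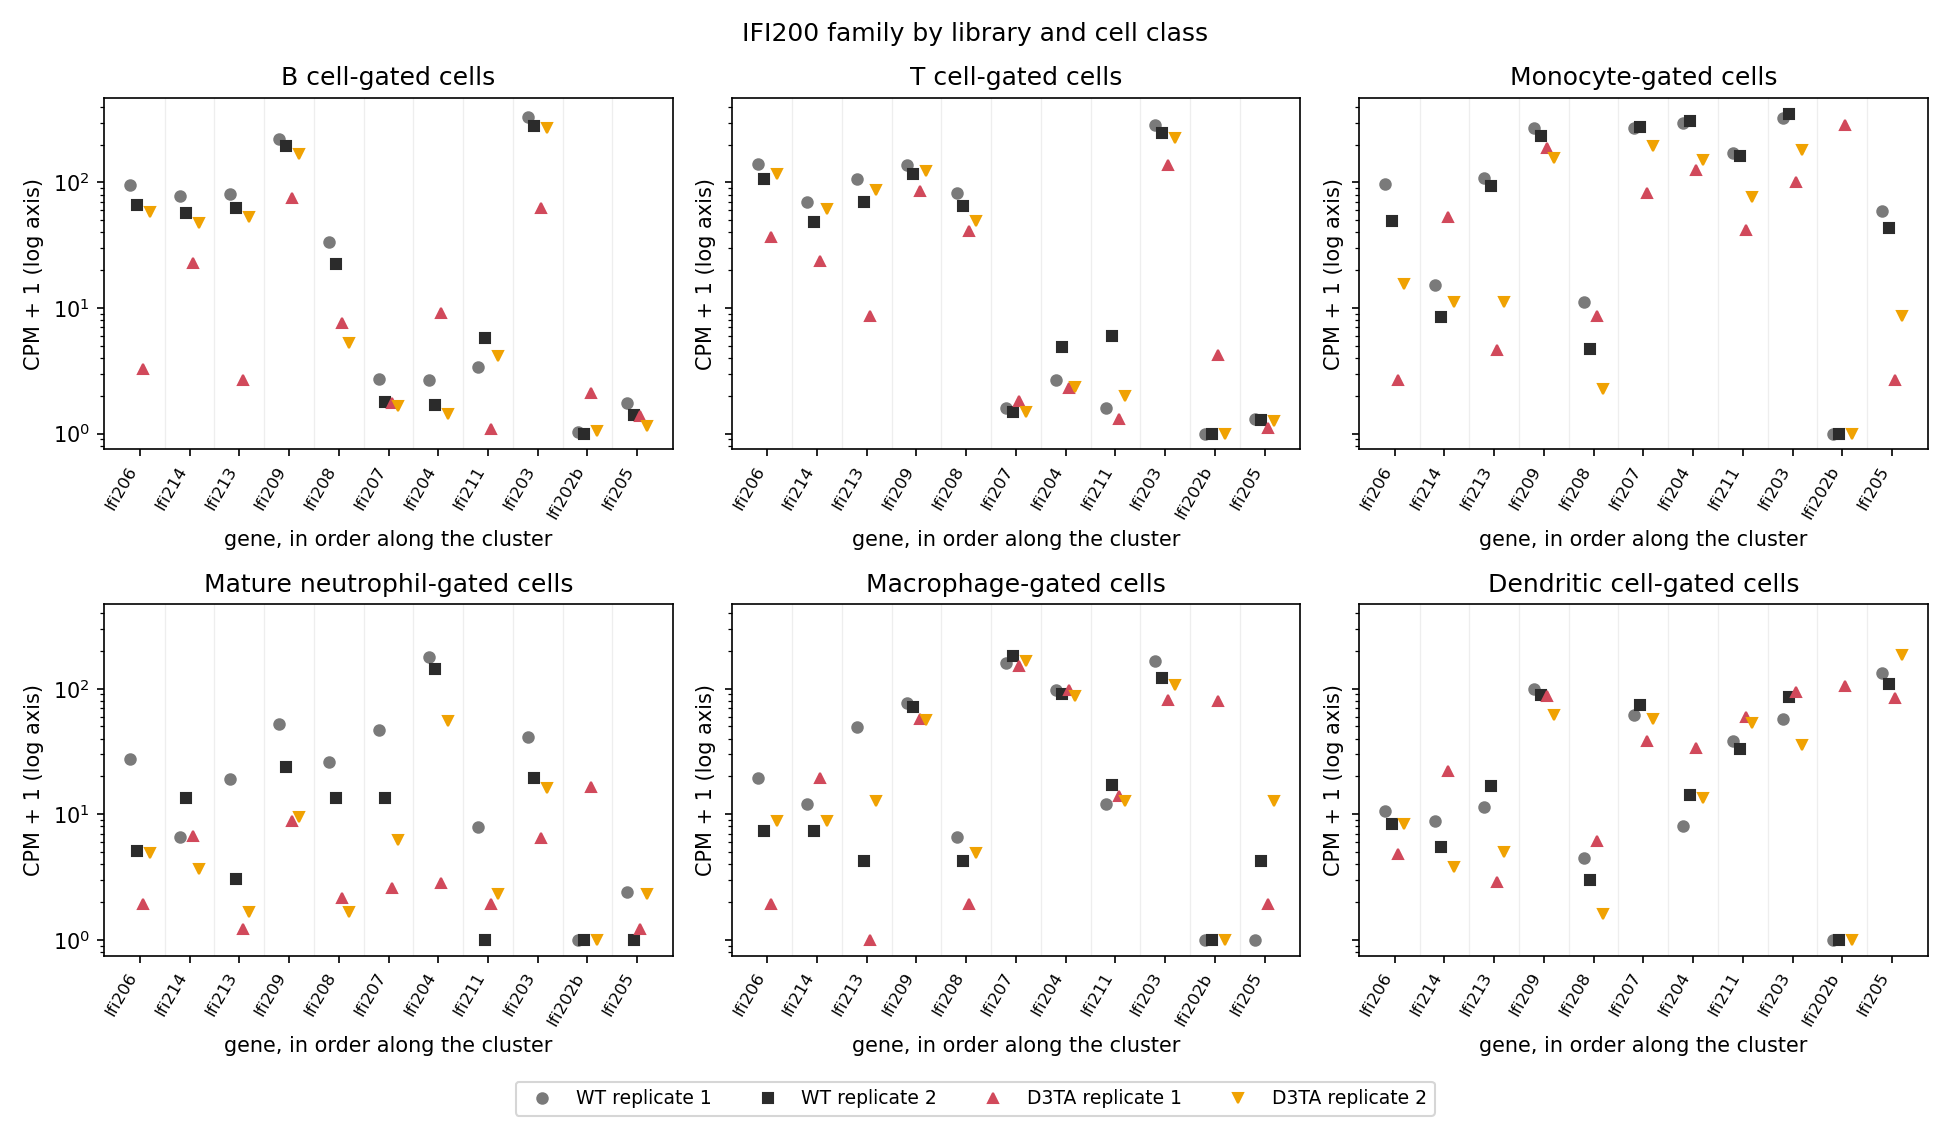
CPM + 1 (log axis) of the 11 IFI200 genes, in their order along the chromosome, in 6 gated cell classes; each point is 1 library (grey circle WT replicate 1, black square WT replicate 2, red triangle D3TA replicate 1, orange inverted triangle D3TA replicate 2). Ifi202b is at or near 0 outside D3TA replicate 1, and Ifi213 is lowest in D3TA replicate 1 in all 6 classes.

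In macrophages and dendritic cells D3TA replicate 1 had several IFI200 members near or above WT. Macrophages had Ifi207 at 160, 183, 152 and 165 CPM and Ifi204 at 96.8, 89.8, 96.6 and 86.5 CPM, and the groups overlapped for both. Dendritic cells had Ifi203 at 56.8, 84.4, 93.5 and 34.6 CPM, so that D3TA replicate 1 was the highest library and D3TA replicate 2 the lowest. With the same minimum in WT, the median ratio of IFI200 members to the WT mean was 0.927 and 0.847 in dendritic cells and 0.825 and 0.808 in macrophages. In mature neutrophils the ratios were 0.0603 and 0.244, and in monocytes 0.297 and 0.477, low in both D3TA libraries. Ifi204, a nuclear regulator of myeloid differentiation, had 178, 142, 1.83 and 53.9 CPM in mature neutrophils.

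Monocyte-gated cells, of which the libraries held 91, 53, 214 and 110, had the most called members. Of 35 members tested, 15 were called, 13 lower and 2 higher in D3TA, where 14.9% of all 8695 genes were called, 5.95% lower and 8.96% higher. The 13 were 7 of 9 tested IFI200 genes, all 4 tested IFIT genes, Rsad2 and Ifitm6, and the 2 were Ifitm1 and Ifi30. Both D3TA libraries lay below both WT libraries for 20 members, against 23.8% of all genes, and the median change was -0.74 over the members and 0.01 over all genes. None of the 7 GBP and 4 OAS genes tested was called.

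Among IFIT genes of monocytes, Ifit3 had 40.4, 77.8, 5.91 and 1.27 CPM, a change of -3.80 ± 0.52 (adjusted p = 3.051e-05). Its neighbour Ifit3b, a near copy whose reads may be shared with it, had 22.2, 29.6, 0.562 and 1.9 CPM (-4.59 ± 0.66, adjusted p = 5.79e-05). Neither gene's groups overlapped. Ifit1 had 16.1, 63, 7.31 and 1.9 CPM (-2.91 ± 0.60, adjusted p = 0.00198), and Ifit2 had 18.2, 148, 12.7 and 12 CPM (-2.76 ± 0.55, adjusted p = 0.00147). The second WT library was the high one for both, and WT replicate 1 lay close to the D3TA libraries for Ifit2. Rsad2 had 26.2, 46.3, 11.3 and 6.32 CPM, a change of -1.98 ± 0.46 (adjusted p = 0.00583). Cells of the monocyte gate were also thinned to equal depth and read for the IFIT genes, Isg15 and Rsad2, as described below. A UMI was then seen in 16 of 69, 6 of 53, 24 of 213 and 5 of 109 cells. At least 3 of these genes were seen in 1, 2, 0 and 0 cells. Without thinning, shares of cells with a UMI were 37.4%, 39.6%, 59.35% and 36.4%. The spread of single genes over cells was not tested.

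Among IFI200 genes of monocytes, Ifi213 had 107, 92.6, 3.66 and 10.1 CPM (-4.04 ± 0.41, adjusted p = 1.018e-06). Ifi205 had 58.5, 42.6, 1.69 and 7.59 CPM (-3.70 ± 0.54, adjusted p = 6.218e-05), and Ifi206 had 96.8, 48.2, 1.69 and 14.5 CPM (-3.47 ± 0.58, adjusted p = 0.000299). In each, D3TA replicate 1 was the lowest library and D3TA replicate 2 also lay below WT. Ifi211, Ifi203, Ifi204 and Ifi207 fell by less, with changes of -1.59, -1.34, -1.16 and -1.06. Without D3TA replicate 1, the library that stood apart in this cluster, the changes were -3.37 (Ifi213), -2.80 (Ifi205), -2.39 (Ifi206), -1.23 (Ifi211) and -1.08 (Ifi204). These genes and Ifi203 were still called, and the change was -0.58 for Ifi207, whose call was lost (adjusted p = 0.0603). Ifi209 had 272, 235, 188 and 155 CPM and an adjusted p of 0.170, and Ifi214 had 14.1, 7.41, 52 and 10.1 CPM, high in D3TA replicate 1.

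Further members of monocytes gave these values, of which Ifitm1 was low in WT. Ifitm6 had 510, 506, 235 and 248 CPM (-1.10 ± 0.26, adjusted p = 0.00546). Ifi30 had 442, 504, 1401 and 847 CPM (1.24 ± 0.30, adjusted p = 0.00733). The groups did not overlap for either gene, with Ifitm6 low and Ifi30 high in D3TA. Ifitm1 had 2.02, 3.71, 49.5 and 17.7 CPM (3.56 ± 0.76, adjusted p = 0.00259), counted from 1, 2, 176 and 28 UMIs. It passed the filter on low counts only through the D3TA libraries, so its direction is partly set by that filter. Per 1000 UMIs of the neutrophil gene S100a9, Ifitm1 had 29 and 25.5 UMIs in D3TA monocytes and 29.7 and 31.8 in D3TA mature neutrophils, while WT monocytes held only 25 and 11 S100a9 UMIs. The part of neutrophil RNA in the Ifitm1 difference was not tested. Isg15 (94.8, 117, 82.7 and 31.6 CPM), Oasl2 (101, 139, 77.9 and 41.1 CPM) and Ifitm3 lay lower in both D3TA libraries with adjusted p of 0.152, 0.0521 and 0.387.

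The monocyte gate held different cells in the genotypes. The proliferation gene Mki67 had 6.05, 14.8, 647 and 669 CPM, Ace, a gene of nonclassical monocytes, 303, 298, 27 and 60.1 CPM, and Ly6c2, a gene of classical monocytes, 662, 699, 2491 and 1662 CPM. A narrower gate was added after these values were seen. It kept cells with more UMIs of classical than of nonclassical markers and no UMI of 5 cycle genes, which left 67, 24, 43 and 37 cells. The genotypes were not made alike by it: Ace still had 94.5, 121, 20.6 and 43.45 CPM and Ly6c2 909, 919, 1894 and 1084 CPM. Nr4a1, another nonclassical marker, overlapped at 137, 85.45, 95.9 and 114 CPM. The rule on cycle genes also depends on depth, with medians of 2236, 10312, 14650 and 12788.5 UMIs per cell in the full gate. In the narrower gate 7 of 27 members tested were called, all lower in D3TA, and 0.774% of 5428 genes, with 0.534% lower. They were Ifi213 (121, 128, 9.14 and 29.9 CPM, -2.72 ± 0.45), Ifit3 (52.2, 146, 11.4 and 2.72 CPM, -3.67 ± 0.61), Ifi205 (-3.03 ± 0.57), Ifi203 (-1.73 ± 0.35), Ifi206 (-2.57 ± 0.59), Ifi211 (-1.46 ± 0.36) and Ifit3b (-3.81 ± 0.93). The calls of Ifitm6 (-0.07 ± 0.28), Ifi30 (0.87 ± 0.30), Ifi204 (-0.79 ± 0.30) and Ifi207 (-0.62 ± 0.31) ended in this gate, while Rsad2, Ifit1, Ifit2 and Ifitm1 were too low there to be tested. Without WT replicate 2, which had 53 cells, 2 members were called in the full gate (Ifi213 and Ifi205). Most folds stayed about as large with 1 WT library, such as those of Ifi206 (-3.86), Ifit3b (-4.36), Ifit3 (-3.26) and Ifi211 (-1.63), whereas those of Ifit2 (-0.56) and Ifit1 (-1.63) were smaller.

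**Figure D3:**
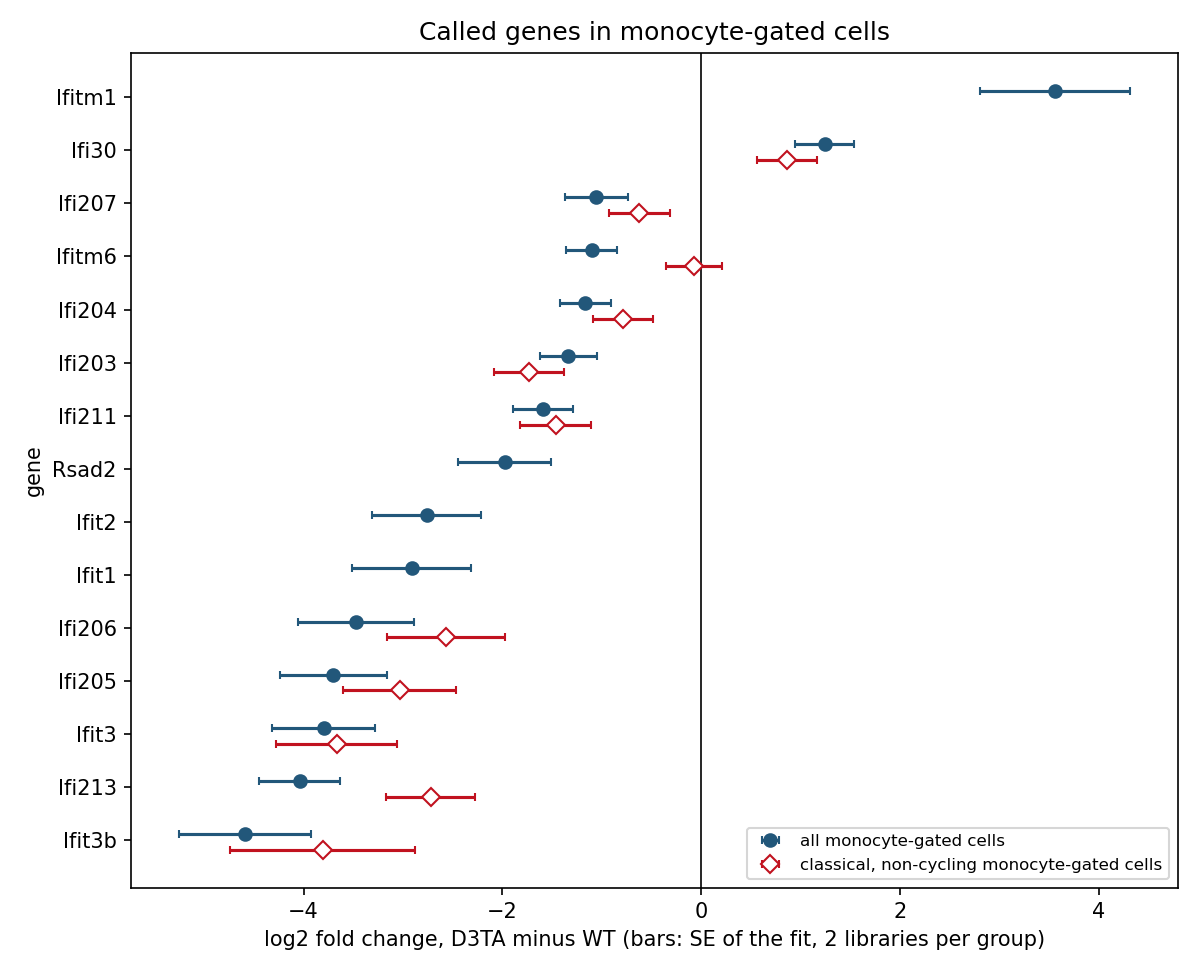
Log2 fold change of D3TA over WT with its standard error (bars) for the 15 members called in monocyte-gated cells; filled circles are all gated cells and open diamonds the classical, non-cycling cells where the gene could be tested. Ifit3, Ifit3b, Ifi213, Ifi205, Ifi206, Ifi211 and Ifi203 stay below 0 in both gates, and Ifitm6 moves to -0.07.

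In mature neutrophil-gated cells (289, 127, 1055 and 440 cells) 1 of 34 members was called, where 0.309% of 6807 genes were, 0.294% higher and 0.0147% lower in D3TA. This was Ifitm6, with 166, 118, 635 and 591 CPM, a change of 2.38 ± 0.24 and an adjusted p of 0.0101. Both D3TA libraries were far above both WT libraries. Ifitm6 was higher still in immature neutrophils, and the mature gate of the D3TA libraries held more RNA of the immature granule gene Ngp (13.9, 10.3, 929 and 982 CPM). In cells with at most 1000 CPM of Ngp, Camp and Ltf together, a gate added after these values were seen, Ifitm6 had 167, 118, 387 and 325 CPM, a change of 1.56 ± 0.27 with an adjusted p of 0.0918, and 0 of 30 members were called (0.181% of all genes). Granule RNA still differed by genotype in that gate, with Ngp at 12.6, 10.3, 213.5 and 281 CPM and Camp at 2.8, 12.4, 364 and 284 CPM. Without WT replicate 1 or WT replicate 2 the call was also lost, with adjusted p of 0.0769 and 0.155, while the change was 2.69 and 2.20.

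The other members of mature neutrophils were not called. Both D3TA libraries lay above both WT libraries for 5 members (10.6% of all genes) and below for 11 (38.8%), shares near those of all genes. Ifitm1 gave a change of 1.66 ± 0.36 (adjusted p = 0.122), and Ifitm10, counted from 3, 0, 158 and 50 UMIs, an adjusted p of 0.0654. Rsad2 gave -1.11 ± 0.38 (adjusted p = 0.268), and Ifit3, with 237, 94.9, 59.4 and 3.94 CPM, gave -1.93 ± 0.86 (adjusted p = 0.389). D3TA replicate 2 was the lower D3TA library for Rsad2 and Ifit3, and WT replicate 2 the lower WT library. Without TMM factors the median change of all genes moved from 0.00 to -0.28, and the calls of all genes from 20 higher and 1 lower to 40 higher and 64 lower. Then 7 members were called, 3 higher and 4 lower.

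**Figure D4:**
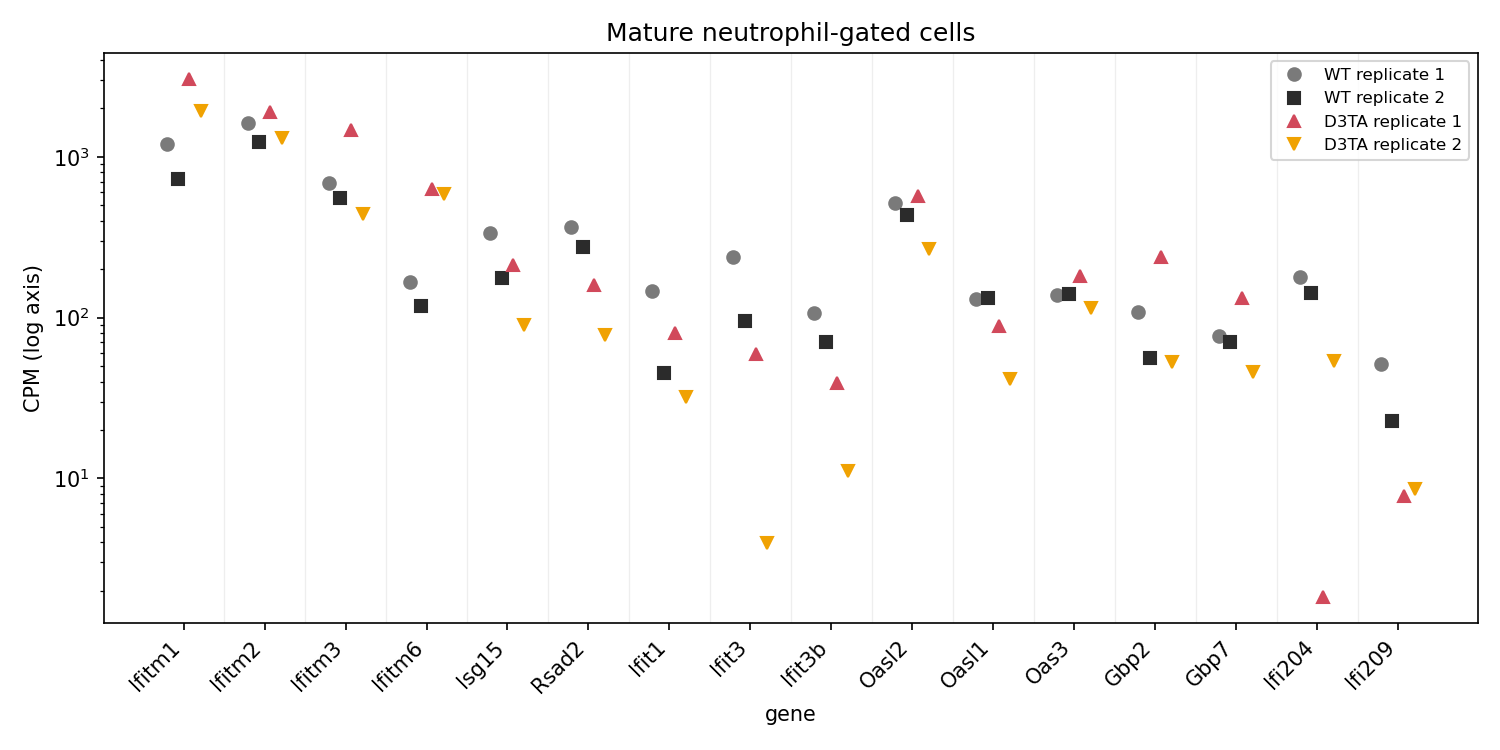
CPM (log axis) of 16 members in mature neutrophil-gated cells; each point is 1 library, marked as in the IFI200 plot. Ifitm6 and Ifitm1 are higher in both D3TA libraries, Ifit3 and Rsad2 are lower in both, and D3TA replicate 2 is the lowest library for Isg15, Oasl2, Oasl1 and Oas3.

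Transcripts of the IFIT genes, Isg15 and Rsad2 (8 genes) were also counted cell by cell. Cells were thinned to 1000 UMIs each so that depth was equal, leaving out shallower cells (99, 11, 35 and 24 mature neutrophils). Then 33.2%, 25.9%, 33.3% and 15.6% of mature neutrophils had at least 1 UMI of the 8 genes, and 8.95%, 3.45%, 3.63% and 0.962% had at least 3 of the genes. Exact 95% intervals of the first share were 26.5% to 40.3%, 18.2% to 34.8%, 30.4% to 36.3% and 12.3% to 19.5%, so D3TA replicate 2 lay below WT replicate 1 and D3TA replicate 1 beyond counting error, while its interval overlapped that of WT replicate 2. Without thinning the shares were 37%, 44.1%, 62.5% and 30%. In B cell-gated cells 5.98%, 3.74%, 7.07% and 2.94% had a UMI of the 8 genes after thinning, at median depths of 1394, 7896, 13273 and 7699 UMIs per cell in B cells and 1714, 3621, 3952 and 3295 UMIs in mature neutrophils, and 3 or more genes were seen in at most 0.112% of B cells. Intervals cover counting error only.

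**Figure D5:**
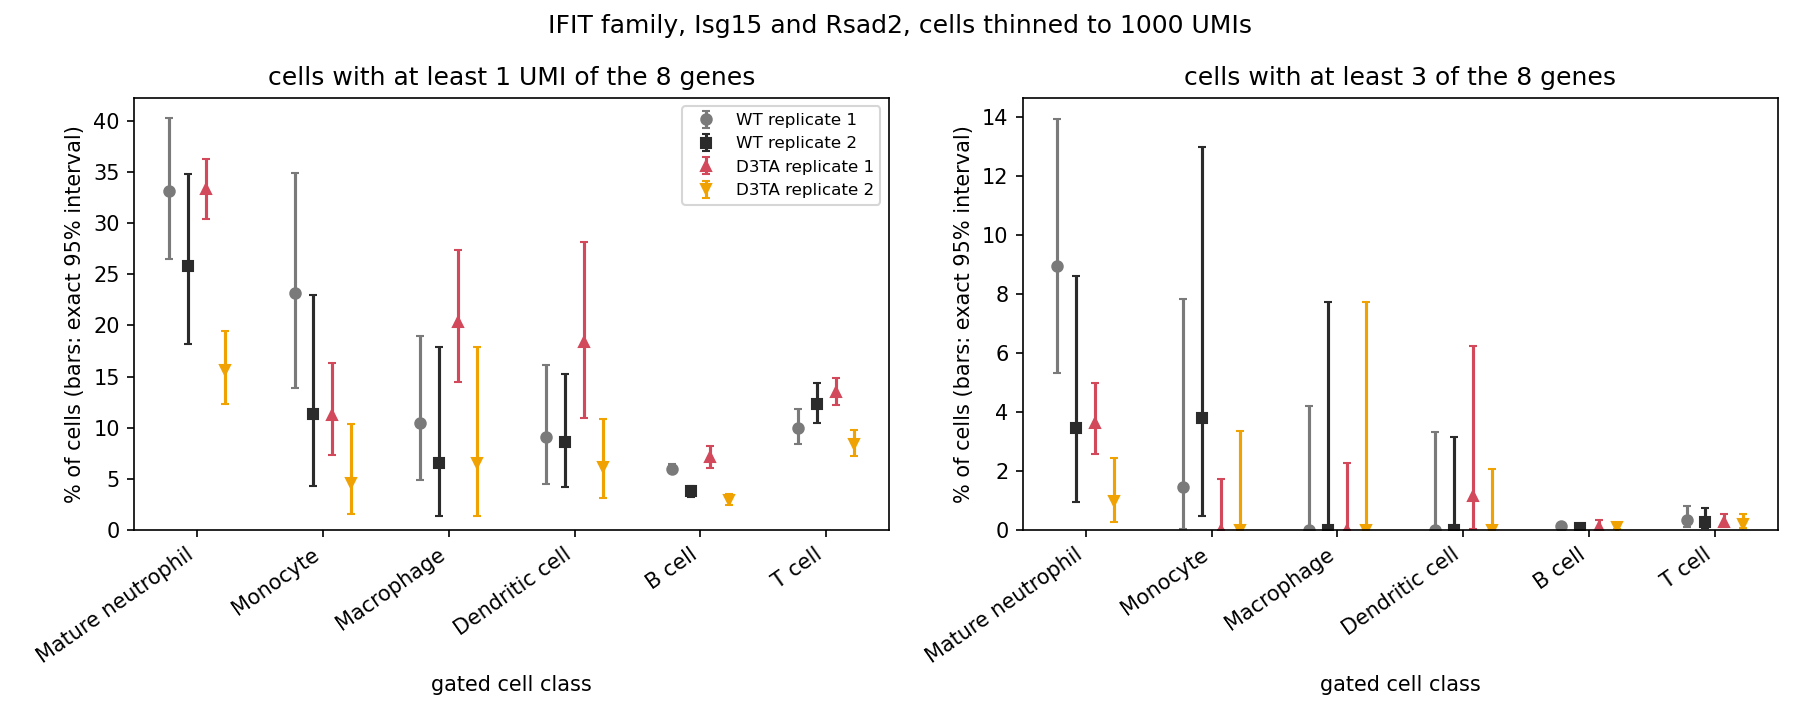
Share of cells (vertical axis, %) with at least 1 UMI (left) or at least 3 genes (right) of the IFIT family, Isg15 and Rsad2 in 6 gated cell classes after thinning to 1000 UMIs; points are libraries and bars exact 95% intervals. On the left, mature neutrophils hold the highest share in each library, with D3TA replicate 2 at 15.6% and the others at 25.9% to 33.3%; on the right, WT replicate 2 has 3.77% in monocytes and 3.45% in mature neutrophils.

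In dendritic cell-gated cells (113, 116, 87 and 179 cells) the D3TA libraries went opposite ways for many members. D3TA replicate 1 lay above both WT libraries and D3TA replicate 2 below both for 21 of the 35 members with at least 5 CPM in WT (60%), against 9.75% of 9825 such genes. The reverse held for 1 member (2.86%), against 15.1% of these genes. Ifitm1 had 33.2, 45.9, 548 and 22.9 CPM, Ifitm3 325, 545, 983 and 245 CPM, and Ifi30 658, 884, 1206 and 505 CPM. In all 3 the WT libraries lay between the D3TA libraries. Gbp2 (27.1, 18.3, 54.7 and 6.5 CPM), Gbp7 (5.24, 6.91, 33.1 and 4.02 CPM), Ifi47, an immunity-related GTPase (10.5, 17.8, 64.2 and 8.35 CPM), and Oasl2 (21.9, 32.1, 60.4 and 10.2 CPM) had the same order. With 2 such libraries per group, 0 of 35 members were called by edgeR (0.0818% of all genes), and DESeq2 called 0. An unadjusted p under 0.05 in edgeR was found for 4 of 35 members and 753 of 9776 genes. Gbp9 (28.8, 22.7, 7.63 and 13.3 CPM, -1.24 ± 0.37, adjusted p = 0.37) was low in both D3TA libraries. The split with D3TA replicate 1 above and D3TA replicate 2 below WT was not particular to dendritic cells. It held for 18.9% of members against 2.41% of genes in mature neutrophils and 17.9% against 3.06% in monocytes. In B cells it was 25% against 15.4%, and in T cells 24.2% against 12.9%.

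Macrophage-gated cells (116, 62, 218 and 88 cells) gave 0 calls by edgeR among 22 members (0.0464% of all genes) and 0 by DESeq2. An unadjusted p under 0.05 in edgeR was found for 3 of 22 members and 144 of 6472 genes. The 3 were Ifi47 (16.8, 12.8, 82.8 and 35.4 CPM, 2.14 ± 0.58), Ifitm6 (18.6, 16, 68.1 and 43.2 CPM, 1.79 ± 0.48) and Gbp5 (24.2, 35.3, 75.4 and 47.2 CPM, 1.21 ± 0.46), each above WT in both D3TA libraries and with an adjusted p of 1. In all, 6 members lay above WT in both D3TA libraries, against 9.63% of genes. The split with D3TA replicate 1 above and D3TA replicate 2 below WT held for 9 of 34 members (26.5%), against 10.2% of genes. Gbp2 had 59.6, 38.5, 140 and 47.2 CPM, in which D3TA replicate 2 lay within the WT range. Ifit1bl1, counted from 2, 0, 79 and 0 UMIs, was seen almost only in D3TA replicate 1.

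In B cell-gated cells (15660, 5299, 2223 and 4176 cells) edgeR called 0 of 44 members and 0% of 15415 genes. An unadjusted p under 0.05 in edgeR was found for 6 of 44 members and 789 of 15415 genes. DESeq2 called 3 members, a count given without the share of all genes. Both D3TA libraries lay below both WT libraries for 19 members, against 20.6% of all genes. Ifit3 had 9.85, 8.67, 3.29 and 3.61 CPM (-1.36 ± 0.25, adjusted p = 0.867) and Ifit2 11.8, 12.5, 7.2 and 6.77 CPM, low in both D3TA libraries at low levels. Gbp2 had 11.8, 12.1, 78 and 14.4 CPM, Gbp7 27.1, 29, 68 and 36.6 CPM, and Gbp3 24.6, 26.8, 55.5 and 31 CPM, each high in D3TA replicate 1 and slightly above WT in D3TA replicate 2. Ifi30 had 199, 256, 491 and 220 CPM. Ifit1bl1 had 6.8, 4.41, 30.9 and 2.45 CPM, so it was high in D3TA replicate 1 and lowest in D3TA replicate 2. Without D3TA replicate 2, 20 of 46 members were called in B cells, 10 in each direction, together with 2647 of 16713 genes, and without D3TA replicate 1 none was.

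T cell-gated cells (1444, 1188, 2775 and 1964 cells) also gave 0 calls by edgeR, among 43 members (0.0516% of 13559 genes were called). An unadjusted p under 0.05 in edgeR was found for 4 of 43 members and 813 of 13559 genes. DESeq2 called 2 members, again without the share of all genes. GBP genes were close to WT: Gbp4 had 72.8, 66.8, 66.6 and 72.8 CPM and Gbp8 84.8, 83.5, 81.8 and 74.9 CPM. Ifi27l2a had 403, 487, 592 and 280 CPM, with the WT libraries between the D3TA libraries. Ifitm10 had 22.1, 19.5, 39.8 and 45.9 CPM (1.02 ± 0.19, adjusted p = 0.491), higher in both D3TA libraries. Ifitm6, at 1.27, 0.58, 24.9 and 16.3 CPM, gave 4.44 ± 0.48 (adjusted p = 0.176). It moved with the neutrophil RNA given above, and per 1000 S100a9 UMIs it had 28.9, 22.8, 12.9 and 18.3 UMIs in T cells and 5.65, 7.66, 12.4 and 14.2 in neutrophils of both stages.

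Summed over the whole spleen, 3 of 48 members were called, where 6.08% of 18344 genes were, 5.7% higher and 0.382% lower in D3TA. Ifitm6 had 12.8, 17.7, 631 and 391 CPM (5.17 ± 0.41, adjusted p = 0.00811). Ifi208 had 36.9, 24.6, 9.35 and 10.2 CPM (-1.57 ± 0.24, adjusted p = 0.0272). Ifitm7 was called from 1, 1, 31 and 25 UMIs (4.16 ± 0.62, adjusted p = 0.0262). These sums move with the shares of cells given above, and more cells of a class cannot be told apart there from more RNA per cell. Ifitm2 (52, 38.8, 329 and 131 CPM), Ifitm3 (69.4, 67.6, 660 and 179 CPM) and Ifitm1 (27.7, 8.62, 158 and 42.1 CPM) were above WT in both D3TA libraries with adjusted p of 0.0625, 0.0914 and 0.163. The calls of Ifi208 and Ifitm7 were lost without WT replicate 1, WT replicate 2 or D3TA replicate 1, while the changes stayed near those of all libraries (-1.27, -1.84 and -1.58 for Ifi208, and 4.11, 4.20 and 4.06 for Ifitm7).

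The difference between genotypes itself differed between the 6 classes for 3 of 45 members, against 2.53% of all genes. The 3 were Ifitm6 (adjusted p = 0.000272), Ifi27 (adjusted p = 0.0334) and Ifi205 (adjusted p = 0.0377). An unadjusted p under 0.05 was found for 13 members, a count given without the share of all genes. The Ifitm6 change was 4.44 in T cells, 3.03 in B cells, 2.38 in mature neutrophils, 1.79 in macrophages, 0.11 in dendritic cells and -1.10 in monocytes, the last of which was -0.07 in the narrower gate. The neutrophil RNA given above for T cells and monocytes also moved with genotype in the other classes outside neutrophils. It was 312.5, 79, 2454 and 2153 CPM in B cells, 171, 77, 8566 and 5750 CPM in macrophages and 149, 30.6, 2169 and 2103 CPM in dendritic cells. The part of neutrophil RNA in these Ifitm6 values was not tested. Ifi27, a mitochondrial protein, had 50.2, 47.4, 162 and 61.1 CPM in mature neutrophils and 36.3, 35.2, 41.3 and 22.1 CPM in monocytes. Ifi205 was low in D3TA monocytes, as given above, while dendritic cells had 132, 108, 83.9 and 184 CPM, which overlapped. The Ifi27 and Ifi205 tests were lost without WT replicate 1, WT replicate 2 or D3TA replicate 1, with adjusted p of 0.583, 0.485 and 0.104 for Ifi27 and 0.569, 0.367 and 0.052 for Ifi205. That of Ifi27 was also lost with the size factors of DESeq2 (adjusted p = 0.06), and that of Ifitm6 without WT replicate 2 (0.0615).

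The rest of the interferon pathway was read from a list of 71 names, of which 70 were among the genes. In monocyte-gated cells 15 of 58 tested were called, all lower in D3TA, where 5.95% of all genes were called lower and 8.96% higher. They included the receptor chain Ifngr1 (585, 610, 283 and 284 CPM, -1.10 ± 0.26), the signalling protein Stat2 (88.8, 126, 58.5 and 55 CPM, -0.94 ± 0.29), the repressor and activator Irf2, the RNA sensors Ifih1 and Ddx58, the endosomal RNA receptor Tlr7 (-1.84 ± 0.31), the DNA sensor Aim2, and the induced genes Slfn5 (-2.12 ± 0.26), Parp14, Phf11b, Ddx60, Samhd1, Tor3a, Rtp4 and Herc6. Their groups did not overlap, with the composition of the gate as described. Irf7 (111, 102, 75.1 and 42.4 CPM, adjusted p = 0.0921) missed the threshold. Ifnar1, Ifnar2, Ifngr2 and Irf9 had adjusted p of 0.243, 0.994, 0.474 and 0.978.

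In mature neutrophils 0 of 51 genes of the list were called, where 0.309% of all genes were. Stat2 had 47.4, 37.1, 54.6 and 33.5 CPM, Irf7 131, 53.6, 85.6 and 34.2 CPM and Irf9 137, 94.9, 111 and 68.4 CPM there. For these 3 genes D3TA replicate 2 was the lowest library. The receptor chains had 76.7, 94.9, 58.2 and 83.5 CPM (Ifnar1), 138, 169, 158 and 155 CPM (Ifnar2), 184, 184, 145 and 162 CPM (Ifngr1) and 212, 272, 150 and 153 CPM (Ifngr2). In dendritic cells, macrophages, B cells and T cells 0 of 59, 53, 64 and 61 were called, where at most 0.0818% of all genes were. In the whole spleen 2 of 64 were called, a smaller share than the 6.08% of all genes. They were the lambda receptor chain Ifnlr1 (2.53, 3.39, 18.1 and 15 CPM) and the DNA sensor Cgas (4.69, 5.36, 16.8 and 14.8 CPM), both higher.

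Of the interferons, Ifng, named after its values were seen, had its highest count in T cells. Ifng had 3.23, 11, 122 and 13.3 CPM in T cell-gated cells, from 33, 114, 2436 and 215 UMIs, so D3TA replicate 1 was the high library (3.26 ± 1.17, adjusted p = 0.78). That library also had the highest level of Gbp2 and Gbp7 in mature neutrophils, dendritic cells and B cells, as given above or plotted. These genes were picked after their values were seen, and Gbp9 was lowest in that library in dendritic cells. Over GBP genes with at least 5 CPM in WT, the median ratio of that library to the WT mean was 1.55, 1.29 and 1.67 in those classes. It was 1.68 in macrophages, 1.02 in T cells and 0.965 in monocytes. A part of Ifng in these levels was not tested. Ifnb1 had 0 UMIs in all 4 libraries.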

How the data were processed

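The deposited values are raw UMI counts per gene and cell barcode from 10x GEM-X libraries. Per the file headers, the authors used Cell Ranger 7.0.1, and the submitters' processing notes name mm10 as the build. The 4 matrices held 64410 barcodes and 83507825, 81416981, 143811696 and 114430052 UMIs (WT replicate 1, WT replicate 2, D3TA replicate 1, D3TA replicate 2). No other column of values was present (0 not used).

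Cells with at least 500 UMIs, 250 genes and at most 10% mitochondrial UMIs were kept, and Scrublet (expected rate 6%) removed 1615 doublets. Its automatic threshold marked 0 cells in WT replicate 1, and the average of the remaining thresholds was applied to that library after the data were seen. Cells were gated into 16 classes by 130 markers: the best class score had to reach 1.5 times the second with at least 3 markers detected. Gates were used because no deposited annotation of cells was used here, and the names may differ from the authors' own.

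Genotypes were compared on UMI sums of each class in each library with edgeR 4.0.16's quasi-likelihood test (R 4.3.3, filterByExpr, TMM, two-sided, Benjamini-Hochberg adjustment over all genes tested, threshold 0.05), checked on simulated data. All adjusted p-values are of this test. Classes were compared in a joint fit of 6 classes with the library as a block. Classes with fewer than 30 cells in a library, such as immature neutrophils, were not fitted. DESeq2 1.42.0 was an alternative. Other tools were Python 3.11.15, scanpy 1.11.5 and scipy 1.17.1. Intervals of shares are exact Clopper-Pearson 95% intervals. Gene positions came from GENCODE on GRCm38 and promoters from RefSeq on GRCm38.p6.

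Named genes were, in each comparison, members called and moved alike in every library and the 3 members of each family with the highest level, and for the pathway list the called genes and fixed receptor and signalling genes, of which 1 is not reported here. Further genes named for a pattern between libraries were chosen after their values were seen. The members, lists and gates were chosen with earlier results of these data known.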

Additional observations from a re-analysis of the deposited data

Results flagged for a closer look

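For 3 members the difference between D3TA and WT itself differed between the 6 gated cell classes in the joint edgeR fit. Ifitm6 had an adjusted p of 0.000272, Ifi27 of 0.0334 and Ifi205 of 0.0377. The per-library values of these genes stand with the comparison of classes in the report.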

How the results depend on the processing

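Of 104 counts of called members recomputed under another setting, 67 were within 1.5 times the reported count and 37 were not. The counts below are of members alone, without the share of all genes called under the same setting. Calls over all genes also moved with the setting, as given above for mature neutrophils without TMM factors and B cells without D3TA replicate 2. A changed count is therefore not a result about the members. In the whole spleen the count of 3 became 5 with no filter on low counts and 12 with DESeq2. In mature neutrophils the count of 1 became 18 with no filter, 5 with DESeq2, 3 with stricter cell filters, 7 without scaling and 0 in the narrower gate, and in monocytes 15 became 7 in the narrower gate. With no filter, macrophages gave 6, dendritic cells 5 and T cells 1 in place of 0, and DESeq2 gave 3 in B cells and 2 in T cells. Leaving out 1 library at a time gave 1 to 27 in the whole spleen, 0 to 17 in mature neutrophils, 2 to 22 in monocytes, 0 to 13 in macrophages, 2 to 24 in dendritic cells, 0 to 20 in B cells, 0 to 6 in T cells, 43 to 44 for levels between classes and 0 to 18 for the genotype difference between classes. In these fits the lone library of a group is assumed to vary like the other group. For the counts by genotype the highest came without D3TA replicate 2, except in monocytes, where it came without D3TA replicate 1, and the cause was not tested.

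Same-numbered libraries did not move together (correlation of their deviations -0.345 to 0.0822). This does not tell which libraries share an age, and a pairing of opposite numbers stays possible. With the replicate number as a block the counts were 7 in the whole spleen, 2 in mature neutrophils, 18 in monocytes, 1 in dendritic cells and 0 in macrophages, B cells and T cells. With the numbers crossed, added after seeing the data, they were 13 in the whole spleen, 6 in mature neutrophils, 2 in B cells and 4 in T cells.

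Of 272 recomputed values for 22 single results, 231 kept their call, 41 lost it (19 of these without WT replicate 2) and 0 changed direction. Ifi205 and Ifi213 in monocytes and Ifitm6 in the whole spleen kept their call in all of their settings. The no scaling, crossed and narrower settings were added after seeing the data. With 2 libraries per group, 53 to 91 WT monocytes and 1393 median UMIs per cell in WT replicate 1, small differences could not be detected at this depth.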
